A study of Mus musculus with 18 samples.

Results

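Granule neuron progenitors (GNPs) purified from the cerebella of Ndp knockout mice (NdpKO) were compared with GNPs of wild-type (WT) mice, 4 bead arrays of each, and the difference in level between them was taken for every probe. Levels are normalised log2 intensities, and level 5 lies just above the background of these arrays, whose median probe sat at 4.13 on each array. A probe was described when it carried 1 gene symbol and its mean was above level 5 in NdpKO GNPs, in WT GNPs or in both. This gave 9717 of the 45281 probes, for 7083 genes, of which 9094 probes were above level 5 in both groups, 290 only in NdpKO GNPs and 333 only in WT GNPs. A probe above level 5 in 1 group only could differ only toward that group, and sign counts by list include such genes. The probes nearest to that limit were those of Acta2, Cxxc4 and Prpf4, at 5.0006, 5.0014 and 5.0016 in their higher group and so included, and those of Tlcd1, Cd200 and Ppp2r2c, at 4.9991, 4.9990 and 4.9985 and so left out.

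Ndp encodes Norrin, a secreted ligand that is unrelated to the Wnt proteins in sequence and yet binds the Wnt receptor Frizzled4. With the co-receptors Lrp5 or Lrp6 and the tetraspanin Tspan12 it stabilises β-catenin in endothelial cells, and in the retina and cerebellum this signal is needed for vessel growth and for the blood-brain barrier, the seal that endothelial cells make against the blood. GNPs are the dividing precursors of the cerebellar granule neurons, the cells from which Sonic hedgehog (SHH) medulloblastoma arises, and they lie next to the vessels, Bergmann glia and microglia of the outer cerebellum. The study asked how loss of Norrin changed the setting in which mice with 1 mutant copy of the Hedgehog receptor gene Ptch1 form such tumors.

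The series held 18 arrays, and 8 of them entered this comparison. NdpKO mice carried an Ndp locus disrupted by a lacZ cassette, were labelled as a mixed strain and, because Ndp is X-linked and the colony was crossed for it, were stated by the study to be male. WT mice were labelled C57Bl/6. Xist, the transcript of the inactive X chromosome, was at 4.11 to 4.12 by its brightest probe on all 8 arrays, and the Y-linked gene Eif2s3y was above level 5 on all 8, the pattern of male mice. GNPs of both groups came from cerebella at postnatal day 6 and were purified over a density gradient and by pre-plating, with no sort on a marker, and neither group carried a Ptch1 mutation. By the labels strain and Ndp genotype differed together between the groups and cannot be told apart, although the study's methods state that compound mutants were set against controls from matched breeding. The other GNP arrays, 4 of NdpKO;Ptch+/- and 4 of Ptch+/- mice, were also from postnatal day 6 and entered the fit to estimate the spread between arrays. The Ptch+/- mice were labelled C57Bl/6, whereas of the compound mutants 1 was labelled a mixed strain and 3 carried no strain label. The 2 tumor arrays were not used.

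Ndp itself was at background on every array, at 4.11, 4.11, 4.12 and 4.10 in NdpKO GNPs and 4.13, 4.11, 4.13 and 4.12 in WT GNPs, so its probe could not check the labels. Zic1, a transcription factor of the granule lineage, was among the brightest genes, with 12.79, 12.87, 12.88 and 12.72 in NdpKO GNPs and 12.72, 12.73, 12.89 and 12.91 in WT GNPs. Of 7 markers of GNPs, 5 were above level 5, and Atoh1 and Pax6, which also define these cells, were at background on this platform. The preparations held other cells as well, since 5 of 6 markers of endothelium, 5 of 6 of astroglia, 2 of the 5 of microglia that have a probe and 4 of the 4 of oligodendrocytes that have a probe were also above level 5. In such a mixture fewer cells of a type and less RNA per cell cannot be told apart.

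NdpKO replicate 4 stood apart from the other NdpKO arrays, and the counts, list medians and adjusted p values are given with and without it. Levels, folds and differences are those of all 4 NdpKO arrays unless stated. Among the described probes that were called lower without this array, its level was at or above the lowest WT array for 67 of 174, and among those called higher its level was at or below the highest WT array for 36 of 136. NdpKO replicates 1, 2 and 3 did so for 0 of them, although these 3 arrays helped to choose the probes and replicate 4 did not.

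With all 4 NdpKO arrays, 109 of the 9717 described probes differed from WT in limma's moderated test at an adjusted p under 0.05, 57 higher in NdpKO GNPs and 52 lower. They were the probes of 107 genes and 1.12% of those described, against a background of 0.307% of all 45281 probes called (0.152% higher and 0.155% lower). The increases were small, with a median of 0.61 and a highest of 1.68 on the log2 scale, whereas the decreases had a median size of 1.11 and reached 3.14. The median difference over all described probes was 0.02, which the quantile normalisation of the arrays holds near 0.

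Without NdpKO replicate 4, 310 described probes were called, 136 higher and 174 lower in NdpKO GNPs, or 3.19%, against a background of 0.886% of all probes (0.400% higher and 0.486% lower). The calls with and without this array shared 100 described probes, 9 were made only with it and 210 only without it. A plain count that used no test found every NdpKO array above every WT array at 604 described probes, and below every WT array at 476, together 11.1%, against 5.47% of all probes whose groups did not overlap. The count rested on single arrays elsewhere too. Over all probes the fit made 139 calls with every array, and 25, 68 and 29 when NdpKO replicate 1, 2 or 3 was left out. It made 41, 62, 75 and 188 calls when WT replicate 1, 2, 3 or 4 was left out. A fit on the 8 NdpKO and WT arrays alone made 4 calls, with 4116 probes at an unadjusted p under 0.05.

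**Figure D1:**
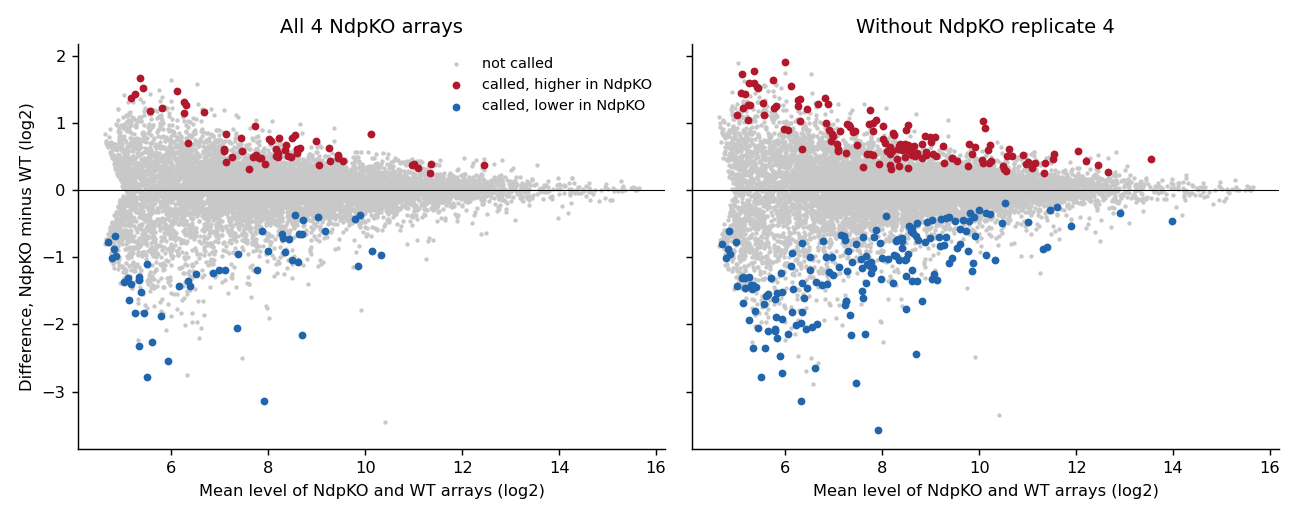
Difference in level (NdpKO minus WT, log2) against the mean level of the NdpKO and WT arrays (log2) for the 9717 described probes, with all 4 NdpKO arrays (left) and without NdpKO replicate 4 (right). Coloured points are the 109 and the 310 called probes, and the decreases reach further from 0 than the increases.

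The largest decrease to pass the test among the described probes was in a heat shock chaperone, one of the proteins that refold others under stress. Hspa1a, the stress-inducible Hsp70, gave 5.25, 5.60, 6.84 and 7.64 in NdpKO GNPs, against 9.93, 9.57, 8.96 and 9.44 in WT GNPs. No NdpKO array reached the WT range, and Hspa1a fell 8.84-fold (difference -3.14 ± 0.42 SE, adjusted p = 0.0126, 0.00182 without replicate 4). A dimmer Hspa1a probe gave 4.15, 4.14, 4.15 and 4.27 in NdpKO GNPs, against 7.16, 6.62, 5.55 and 6.68 in WT GNPs, and was called too (adjusted p = 0.00337, 0.00642 without replicate 4). Both calls held in each of the 8 fits that left out 1 NdpKO or WT array. Hspa1b, the neighbouring and nearly identical gene, differed by -2.23 without passing the test (adjusted p = 0.053, 0.0542 without replicate 4), and transcripts of the pair may bind each other's probes.

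Bag3, the co-chaperone that links Hsp70 to small heat shock proteins, fell 1.89-fold, with 7.51, 7.97, 7.83 and 8.25 in NdpKO GNPs, against 9.05, 8.79, 8.68 and 8.72 in WT GNPs (adjusted p = 0.0446, 0.0198 without replicate 4). That call held in 1 of the 8 leave-one-out fits. Hspb1, a small heat shock protein, gave 4.25, 4.92, 4.51 and 6.10 in NdpKO GNPs and 8.34, 7.23, 7.56 and 7.67 in WT GNPs, with a difference of -2.75 (adjusted p = 0.053, 0.0241 without replicate 4). Its partner Hspb8 gave 4.56, 4.86, 4.40 and 5.70 in NdpKO GNPs and 6.98, 6.92, 6.50 and 6.33 in WT GNPs, with a difference of -1.80 (adjusted p = 0.0918, 0.0393 without replicate 4). For both genes replicate 4 was the only NdpKO array above level 5, and without it both were called.

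Of 22 heat shock genes on the list, 16 were above level 5, 5 of them in WT GNPs only, and 14 of the 16 had negative differences. The median was -0.33 with all arrays and -0.25 without replicate 4, beside 0.02 over all described genes. Of all 7082 described genes by their brightest probe, 3358 had negative and 3724 positive differences. Of these 7082, 48 were called lower and 40 higher with all arrays, and 146 lower and 100 higher without replicate 4. These are the background counts for this list and for those that follow. Calls were made for 2 of the 16 with all arrays and for 4 without replicate 4, each lower in NdpKO GNPs, and the mean level over the 16 ran from 7.98 to 8.26 on NdpKO arrays, against 8.86 to 9.11 on WT arrays. The differences beyond 1 were those of Hspa1a, Hspa1b, Hspb1 and Hspb8, whereas the inducible genes Dnajb1 (-0.32) and Hsph1 (-0.11), the constitutive chaperone Hspa8 (-0.02) and the mitochondrial chaperone Hspd1 (-0.18) were not called with or without replicate 4.

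Heat shock genes are induced by the factor HSF1, which binds inverted repeats of GAA and TTC units upstream of the start. The 150 bases before the start of the pair with the largest differences were read from RefSeq (GRCm38.p6), 5′ to 3′ along the gene's strand, with GAANNTTC matches in capitals. Hspa1a lies on the minus strand (chr17:34972157-34972306) and Hspb1 on the plus strand (chr5:135887769-135887918).
Hspa1a: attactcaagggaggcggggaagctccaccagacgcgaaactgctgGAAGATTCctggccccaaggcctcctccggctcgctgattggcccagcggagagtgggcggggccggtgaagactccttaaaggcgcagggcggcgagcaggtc
Hspb1: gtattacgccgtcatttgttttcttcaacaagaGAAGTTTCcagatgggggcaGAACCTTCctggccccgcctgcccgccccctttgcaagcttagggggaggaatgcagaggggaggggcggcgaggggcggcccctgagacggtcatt

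Over a window of 250 bases before to 50 after the start, a GAANNTTC or TTCNNGAA match, each of which reads the same on both strands, was present in the 4 heat shock genes called without replicate 4 and in 5 of the 10 others with a sequence. Among 32851 promoters of the same length 15.1% held 1 or more. There were 2 or more matches in 1 of the 4 called genes and in 4 of the 10 others, beside 1.96% of all promoters. The Hspa1a and Hspa1b windows were the same at 296 of 300 bases. A match describes the sequence and does not show that the factor was bound.

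Genes of astroglia, which in the cerebellum are the Bergmann glia that span the GNP layer and the astrocytes of the deeper layers, lay below WT in NdpKO GNPs. Gfap, the intermediate filament of these cells, gave 6.50, 7.89, 7.60 and 8.44 in NdpKO GNPs and 10.65, 10.01, 9.21 and 9.21 in WT GNPs. Every NdpKO array lay below every WT array, and Gfap fell 4.48-fold (adjusted p = 0.0499, 0.0245 without replicate 4), a call that held in 2 of the 8 leave-one-out fits. All 14 listed astroglial genes above level 5 had negative differences, with a median of -0.67, or -0.83 without replicate 4. One was called with all arrays and 7 without replicate 4, each lower, beside 48 and 146 called lower among all 7082 described genes. The mean level over the 14 was 8.52 to 9.49 on NdpKO arrays, highest on replicate 4, against 9.63 to 10.05 on WT arrays.

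The astroglial genes that passed only without replicate 4 were Aldh1l1, a folate enzyme specific to astrocytes (-1.81, adjusted p = 0.0359), the lipid carrier Apoe (-1.65, adjusted p = 0.034), Hopx, a homeodomain-like protein of glial progenitors (-1.34, adjusted p = 0.0233), the glycolytic enzyme Aldoc (-1.38, adjusted p = 0.0309), the water channel Aqp4 (-1.08, adjusted p = 0.0326) and the glial transcription factor Sox9 (-0.53, adjusted p = 0.0233). With all arrays their adjusted p values lay between 0.0926 and 0.205. The gap junction gene Gja1 (-0.05) and Cst3, a secreted protease inhibitor (-0.19), were not called with or without it.

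Genes that astroglia raise in reactive gliosis included decreases that no single array decided. Serpina3n, a secreted protease inhibitor, was at 4.23, 4.70, 4.51 and 5.17 in NdpKO GNPs, against 8.15, 7.28, 6.57 and 6.80 in WT GNPs, at least 4.59-fold lower (adjusted p = 0.00638, 0.00599 without replicate 4). Cd44, a hyaluronan receptor, was at 4.36, 4.57, 4.43 and 4.44 in NdpKO GNPs, against 5.88, 5.68, 5.50 and 5.96 in WT GNPs, at least 1.69-fold lower (adjusted p = 0.000195, 0.00123 without replicate 4). Both genes were at background in NdpKO GNPs but for Serpina3n on replicate 4, and both calls held in all 8 leave-one-out fits. These 2 were the called genes among the 6 of the list above level 5, whose median was -1.01, or -1.29 without replicate 4. Of the 6, 3 were above level 5 in WT GNPs only, Serpina3n and Cd44 among them, so their sign was set by that limit. Timp1 (-1.08), Socs3 (-0.17), Stat3 (-0.16) and Nes (-0.93) did not pass.

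Transcripts of microglia, the resident phagocytes of the brain, also lay below WT. Fcrls, a receptor-like gene restricted to microglia in the mouse brain, gave 5.77, 6.55, 6.33 and 6.64 in NdpKO GNPs, against 8.17, 7.85, 8.20 and 9.31 in WT GNPs, and fell 4.16-fold (adjusted p = 0.0469, 0.0417 without replicate 4). That call held in 1 of the 8 leave-one-out fits, while a dimmer probe of Fcrls held in all 8 (difference -1.64, adjusted p = 0.00337, 0.00599 without replicate 4). Ly86, which pairs with a Toll-like receptor homologue, differed by -1.01 and was called (adjusted p = 0.0237, 0.0297 without replicate 4). The complement subunit genes C1qc (-1.88, adjusted p = 0.0903, 0.0728 without replicate 4) and C1qb (-1.14, adjusted p = 0.138, 0.0801 without replicate 4) did not pass. All 6 listed microglial genes above level 5 had negative differences, with a median of -1.12 (-1.37 without replicate 4). Of these, 2 were above level 5 in WT GNPs only, so their sign was set by that limit. The mean level over the 6 was 5.45 to 6.38 on NdpKO arrays, against 6.82 to 8.01 on WT arrays.

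Genes of phagocyte activation included 3 that only WT GNPs showed above background. Gpnmb, a membrane glycoprotein of lysosome-rich phagocytes, was at 4.13, 4.10, 4.11 and 4.11 in NdpKO GNPs, against 7.56, 6.17, 6.52 and 7.35 in WT GNPs, at least 3.73-fold lower (adjusted p = 0.00807, 0.0133 without replicate 4). Cd83, an activation antigen, was at 4.35, 4.42, 4.33 and 4.74 in NdpKO GNPs, against 6.33, 6.37, 6.80 and 7.38 in WT GNPs, at least 3.29-fold lower (adjusted p = 0.00106, 0.00182 without replicate 4). Tlr2, a receptor for bacterial lipopeptides, was at 4.22, 4.19, 4.27 and 4.61 in NdpKO GNPs, against 6.15, 5.59, 6.28 and 6.62 in WT GNPs, at least 2.23-fold lower (adjusted p = 0.00261, 0.00301 without replicate 4). All 4 NdpKO arrays were at background for these genes and all 4 WT arrays were above it, and the calls held in all 8 leave-one-out fits.

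Lgals3, a galactose-binding lectin of activated phagocytes, was called without replicate 4 (-2.88, adjusted p = 0.0207) and not with it (-2.50, adjusted p = 0.0517). The general lysosomal genes of the list differed little, with Ctsb at -0.28, Npc2 at -0.08 and Cd63 at 0.03, none of them called. In all 3 of the 13 genes above level 5 were called with all arrays and 4 without replicate 4, each lower in NdpKO GNPs, and the median over the 13 was -0.36 (-0.33 without replicate 4).

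**Figure D2:**
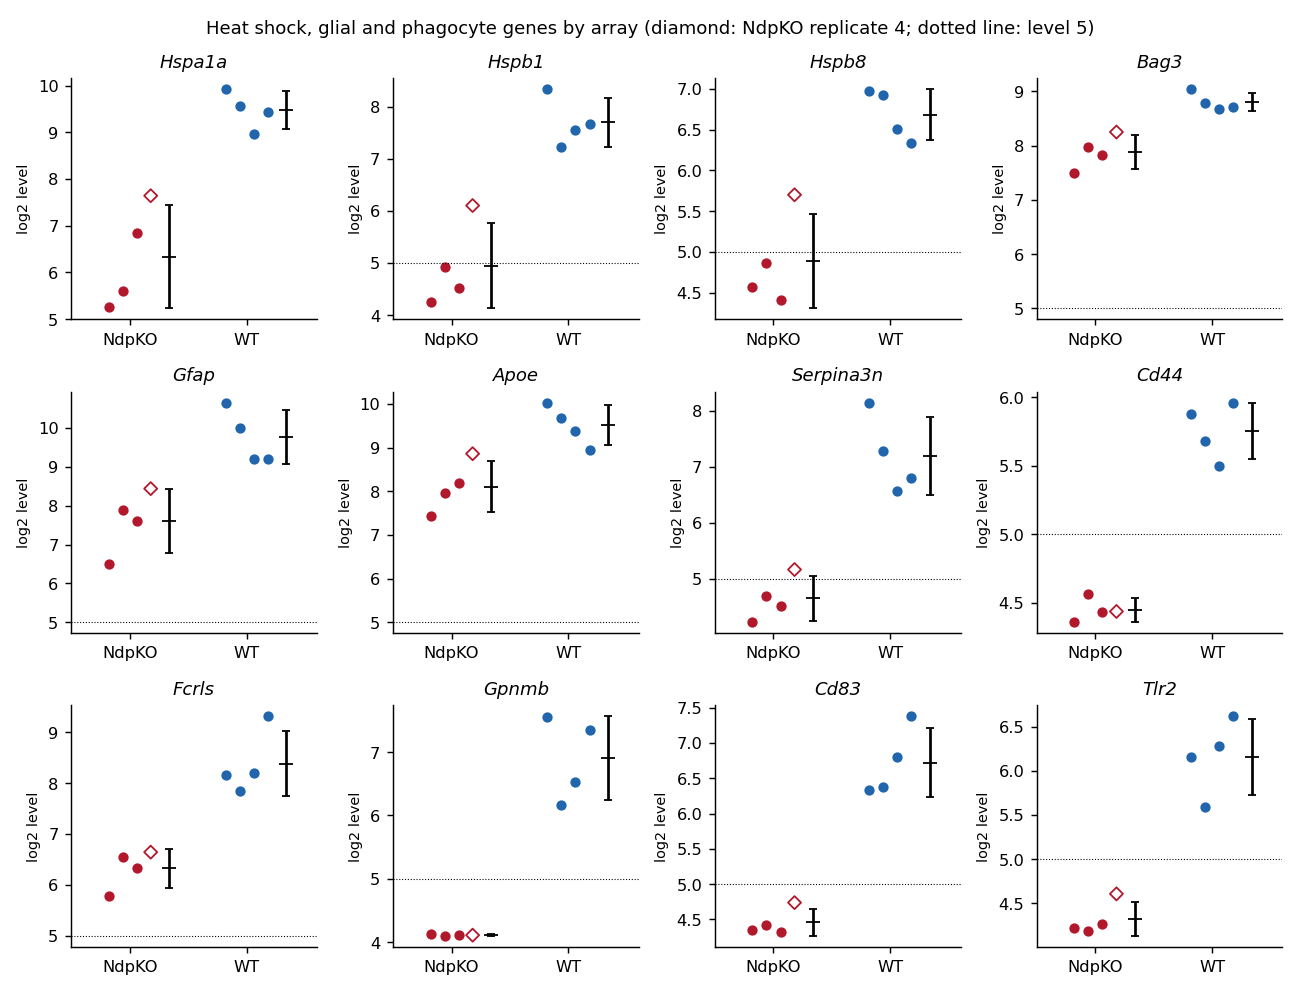
Level (normalised log2 intensity) of 12 genes of heat shock, astroglia, reactive gliosis, microglia and phagocyte activation on each NdpKO array (red, left) and WT array (blue, right), with bars for the mean ± SD of 4 arrays, an open diamond for NdpKO replicate 4 and a dotted line at level 5. NdpKO arrays lie below WT arrays for each gene, and replicate 4 is the highest NdpKO array for each but Cd44 and Gpnmb.

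The vascular genes addressed most directly what Norrin is known for. Apcdd1, a membrane inhibitor of Wnt signalling that is itself a Wnt target in brain endothelium, gave 9.07, 9.51, 9.06 and 9.52 in NdpKO GNPs, against 10.89, 10.37, 10.22 and 10.21 in WT GNPs. Apcdd1 fell 2.19-fold (adjusted p = 0.0229, 0.0198 without replicate 4), and the call held in 5 of the 8 leave-one-out fits. A dimmer probe of Apcdd1 gave a difference of -1.54 that did not pass (adjusted p = 0.177, 0.216 without replicate 4). Apcdd1 was the only called gene of the 12 in the Norrin and Wnt list that were above level 5, of which 9 had negative differences with a median of -0.32 (-0.44 without replicate 4). Tspan12, the Norrin co-receptor (-0.36), Ctnnb1, which encodes β-catenin (-0.16), the feedback inhibitor Axin2 (-0.28), and Sox7 and Sox18, transcription factors of endothelium (-1.15 and -1.04), were not called. Fzd4, Lrp5 and the Wnt effector Lef1 were at background in both groups, and no difference is given for them.

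General endothelial genes lay below WT, and most did not pass. All 16 above level 5 had negative differences, with a median of -0.89 (-1.04 without replicate 4), and 2 were called. The called genes, Nostrin and Vcam1, were also the 2 above level 5 in WT GNPs only, so their sign was set by that limit. Nostrin, which traffics nitric oxide synthase, gave 4.24, 4.25, 4.36 and 5.22 in NdpKO GNPs, against 7.03, 6.26, 6.18 and 5.89 in WT GNPs, and was at least 2.53-fold lower (adjusted p = 0.0499, 0.0244 without replicate 4). Vcam1, a leukocyte adhesion molecule, gave 4.27, 4.47, 4.27 and 5.42 in NdpKO GNPs, against 6.32, 6.06, 5.99 and 6.15 in WT GNPs, and was at least 2.19-fold lower (adjusted p = 0.0465, 0.00988 without replicate 4). Their calls held in 2 and 1 of the 8 leave-one-out fits, and in both genes NdpKO replicate 4 was the NdpKO array nearest to WT.

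The pan-endothelial genes Pecam1 (-1.10, adjusted p = 0.451, 0.222 without replicate 4), Cdh5 (-0.92, adjusted p = 0.664, 0.429 without replicate 4) and Emcn (-0.10, adjusted p = 0.964, 0.725 without replicate 4) did not pass. The mean level over the 16 genes was 6.66, 7.14, 7.03 and 7.89 on NdpKO arrays, against 8.98, 8.19, 7.75 and 7.67 on WT arrays. The ranges met only through replicate 4, which lay above WT replicates 3 and 4.

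All 8 blood-brain barrier genes above level 5 also had negative differences, with a median of -0.56 (-0.72 without replicate 4), and none was called with or without replicate 4. Slco1c1, the thyroid hormone transporter of brain endothelium, had the largest (-1.76, adjusted p = 0.123, 0.0696 without replicate 4). The tight junction gene Cldn5 differed by -0.76, the glucose transporter gene Slc2a1 by -0.46 and the lipid transporter gene Mfsd2a by -0.60. Plvap, a component of the diaphragms of leaky endothelium, gave 4.81, 5.22, 6.17 and 6.42 in NdpKO GNPs, against 4.32, 4.39, 4.29 and 5.71 in WT GNPs. NdpKO replicates 3 and 4 were the highest, WT replicate 4 lay above NdpKO replicates 1 and 2, and the groups overlapped, with a difference of 0.98 that did not pass (adjusted p = 0.409, 0.543 without replicate 4). Angpt2, an endothelial factor that loosens vessels, gave 5.29, 5.22, 4.61 and 7.89 in NdpKO GNPs, against 7.68, 7.39, 7.67 and 7.70 in WT GNPs. NdpKO replicate 4 alone was as high as the WT arrays, and neither fit called it (adjusted p = 0.33, 0.0558 without replicate 4).

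Mural cells and matrix held few calls. Vtn, a pericyte gene for the adhesion protein vitronectin, was called without replicate 4 (-0.74, adjusted p = 0.0445) and not with it (-0.66, adjusted p = 0.0786). The other mural genes above level 5, Rgs5 (-0.47), Acta2 (-0.49) and Mcam (-0.65), were called in neither fit. Of 11 basement membrane and matrix genes, 9 had negative differences with a median of -0.66 (-0.82 without replicate 4), and the 1 call, made without replicate 4, was higher in NdpKO GNPs: Eln, which encodes elastin (0.81, adjusted p = 0.0377). The collagen IV genes Col4a1 (-0.51) and Col4a2 (-0.66) did not pass.

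**Figure D3:**
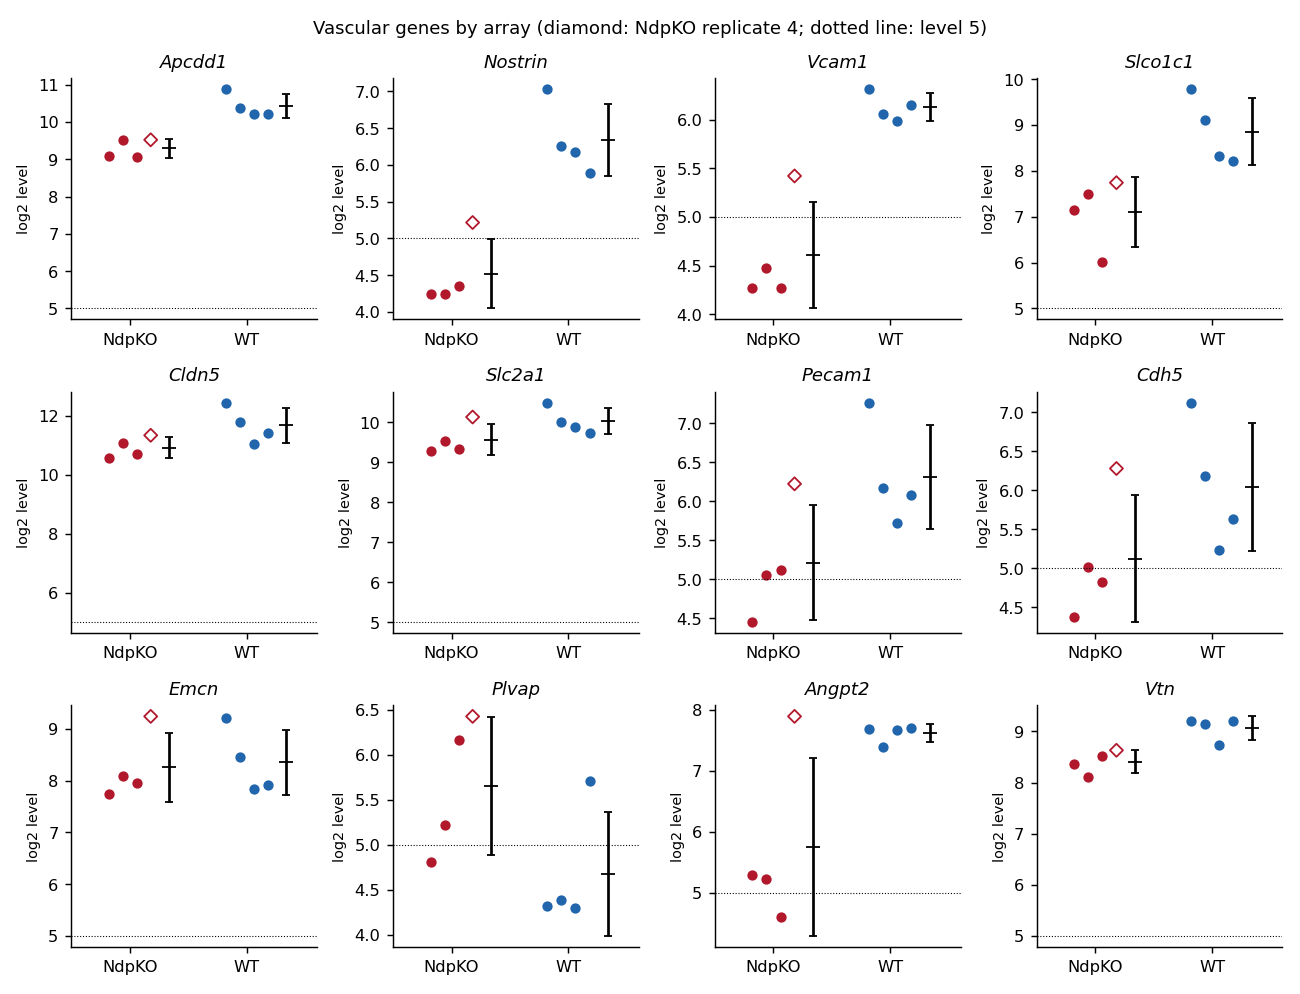
Level (normalised log2 intensity) of 12 vascular genes on each NdpKO array (red, left) and WT array (blue, right), with bars for the mean ± SD of 4 arrays, an open diamond for NdpKO replicate 4 and a dotted line at level 5. Apcdd1, Nostrin and Vcam1 are the 3 called with all arrays, and replicate 4 is the 1 NdpKO array as high as the WT arrays for Angpt2.

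In the opposite direction, genes of differentiating granule neurons had positive differences, most of them small. Kcnd2, the Kv4.2 potassium channel that granule neurons acquire as they mature, gave 9.64, 9.40, 9.77 and 9.44 in NdpKO GNPs, against 8.87, 8.86, 8.97 and 9.06 in WT GNPs. The groups did not overlap and Kcnd2 rose 1.54-fold (adjusted p = 0.02, 0.0174 without replicate 4), a call that held in 4 of the 8 leave-one-out fits. A dimmer Kcnd2 probe, whose groups overlapped, differed by 1.09 without passing (adjusted p = 0.181, 0.133 without replicate 4). Of the 18 granule differentiation genes above level 5, 17 had positive differences, with a median of 0.31 (0.35 without replicate 4), beside 0.02 over all described genes. Among all 7082 described genes 3724 had positive differences, and 40 were called higher (100 without replicate 4). Kcnd2 was the 1 called with all arrays. Without replicate 4 Grin2b, the NMDA receptor subunit of immature neurons (1.29, adjusted p = 0.0244), and the axonal adhesion gene Cntn2 (0.36, adjusted p = 0.0326) were called too. Grin2b gave 7.86, 7.26, 7.68 and 6.96 in NdpKO GNPs, against 6.22, 6.17, 6.44 and 6.43 in WT GNPs, lowest among NdpKO arrays on replicate 4.

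Synaptic genes followed the same direction. Rims1, an organiser of the presynaptic active zone, gave 6.31, 5.60, 6.47 and 5.45 in NdpKO GNPs, against 4.40, 4.38, 4.59 and 4.74 in WT GNPs, at least 1.94-fold higher (adjusted p = 0.0438, 0.0223 without replicate 4). Itsn1, an endocytic scaffold, gave 6.05, 5.75, 5.93 and 5.66 in NdpKO GNPs, against 4.52, 4.43, 4.41 and 4.55 in WT GNPs, at least 1.8-fold higher (adjusted p = 0.0148, 0.0156 without replicate 4). Both were at background on all 4 WT arrays and above it on all 4 NdpKO arrays, and their calls held in 2 (Rims1) and 6 (Itsn1) of the 8 leave-one-out fits. Sh3gl2, which encodes endophilin A1, was bright in both groups, with 12.70, 12.53, 12.68 and 12.64 in NdpKO GNPs and 12.17, 12.21, 12.27 and 12.38 in WT GNPs, and rose 1.3-fold (adjusted p = 0.0465, 0.0496 without replicate 4). Dimmer Sh3gl2 probes, whose groups overlapped, differed by 0.27 (adjusted p = 0.379, 0.292 without replicate 4) and 0.17 (adjusted p = 0.683, 0.79 without replicate 4) and were not called. Rims1, Itsn1 and Sh3gl2 were the 3 calls among 19 synaptic vesicle and active zone genes, 17 of which had positive differences, with a median of 0.28 (0.31 without replicate 4). The 17 included Rims1 and Itsn1, whose sign was set by being above level 5 in NdpKO GNPs only. The vesicle genes Syt1 (0.27), Syp (0.32), Syn1 (0.30) and Vamp2 (0.11) did not pass.

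Microtubule and growth cone genes had 16 positive differences of 18 and a median of 0.22 (0.23 without replicate 4), with no call by their brightest probes but that of Map6, a stabiliser of microtubules, without replicate 4 (0.87, adjusted p = 0.0451). All 4 voltage-gated channel genes above level 5 had positive differences, with a median of 0.32 (0.27 without replicate 4). Of these, 1 was above level 5 in NdpKO GNPs only, so its sign was set by that limit. None was called, Kcnc1 (0.43, adjusted p = 0.113, 0.0579 without replicate 4) coming nearest. Neurotransmitter receptor genes went both ways. Gria1, an AMPA receptor subunit that Bergmann glia also express, was called lower without replicate 4 (-2.04, adjusted p = 0.0474), as was Chrna3, a nicotinic subunit (-0.56, adjusted p = 0.0469), while 6 of the 8 receptor genes had positive differences, with a median of 0.38 (0.45 without replicate 4).

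**Figure D4:**
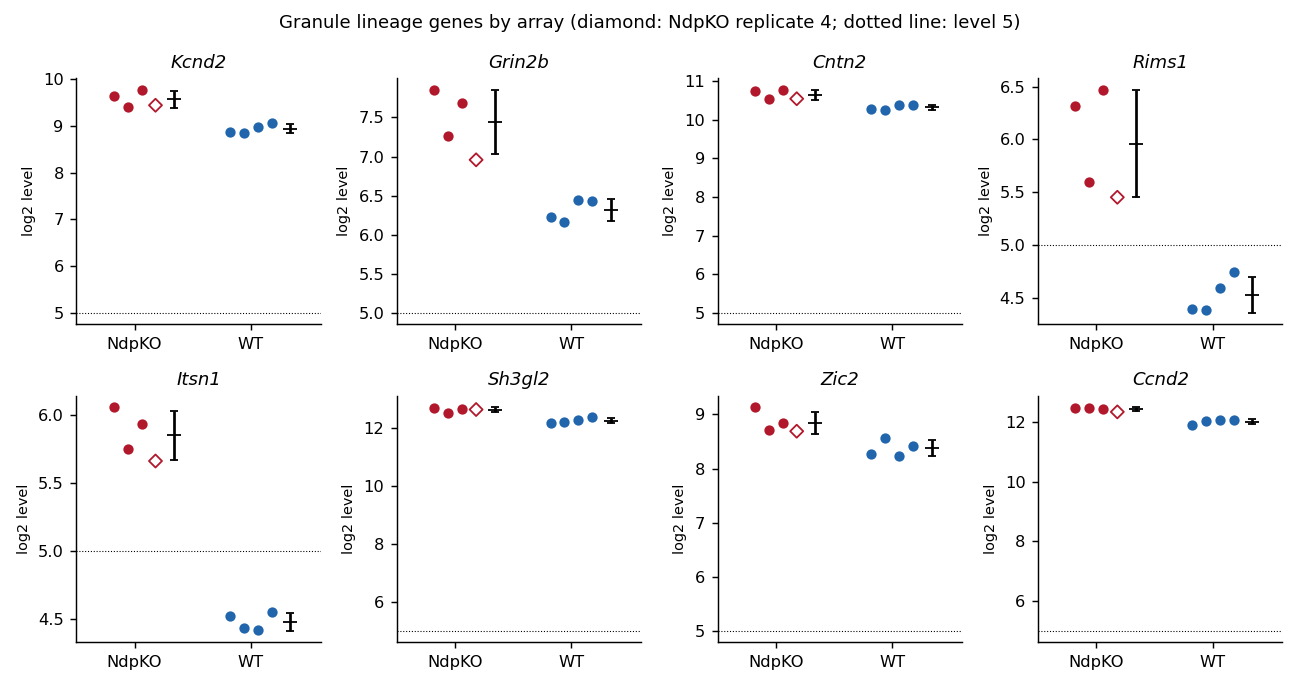
Level (normalised log2 intensity) of 8 genes of granule neurons and their progenitors on each NdpKO array (red, left) and WT array (blue, right), with bars for the mean ± SD of 4 arrays, an open diamond for NdpKO replicate 4 and a dotted line at level 5. Kcnd2, Rims1, Itsn1 and Sh3gl2 are the 4 called with all arrays, and for Rims1 and Itsn1 the WT arrays lie below level 5.

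Genes of the progenitor state had small differences. Of 9 progenitor genes above level 5, 6 had positive and 3 negative differences, with a median of 0.20 (0.18 without replicate 4), and none was called with all arrays. Without replicate 4 the lineage factors Zic2 (0.52, adjusted p = 0.0495) and Zic4 (0.41, adjusted p = 0.0496) were called higher in NdpKO GNPs. Dimmer Zic4 probes passed in neither fit, with differences of 0.67, 0.60 and 0.12 without replicate 4 (adjusted p = 0.0833, 0.106 and 0.564). All 8 Hedgehog pathway genes above level 5 had positive differences, with a median of 0.35 (0.43 without replicate 4), and a mean level of 9.37 to 9.83 on NdpKO arrays, against 9.05 to 9.28 on WT arrays.

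Ptch1, the Hedgehog receptor and a target of the pathway, gave 8.97, 8.68, 8.65 and 8.87 in NdpKO GNPs, against 8.56, 8.70, 8.64 and 8.63 in WT GNPs, with overlapping groups and a difference of 0.16 (adjusted p = 0.597, 0.684 without replicate 4). The other targets Gli1 and Mycn were at background in both groups and Ccnd1 differed by 0.23 (adjusted p = 0.731, 0.264 without replicate 4). Ccnd2, the cyclin that drives GNP division, was called only without replicate 4 (0.44, adjusted p = 0.041), another bright Ccnd2 probe had the same sign without passing (0.37, adjusted p = 0.285, 0.19 without replicate 4), and the dimmest ran the other way (-0.63, adjusted p = 0.113, 0.0542 without replicate 4). Sufu, a repressor of the pathway, had the largest difference of the list (1.39) and did not pass (adjusted p = 0.112, 0.0582 without replicate 4).

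The 21 cell cycle genes above level 5 were balanced, with 9 positive and 12 negative differences and a median of -0.05 (0.03 without replicate 4). Cdk1, the mitotic kinase, gave 10.18, 10.17, 10.12 and 10.69 in NdpKO GNPs, against 10.67, 10.59, 10.75 and 10.56 in WT GNPs, and was called lower only without replicate 4, the highest NdpKO array (-0.48, adjusted p = 0.0496). Pcna (-0.11), Mcm2 (0.41) and Top2a (0.19) were called in neither fit. Among CDK inhibitors Cdkn1a, a p53 target that was counted here and not in the list of p53 targets, was called lower without replicate 4 (-1.09, adjusted p = 0.0453), and Cdkn1b (0.25) and Cdkn1c (0.16) were not. Outside the list Kif23, a kinesin of cytokinesis, differed by -0.96 (adjusted p = 0.0175, 0.0135 without replicate 4). Dimmer Kif23 probes differed by -0.03 (adjusted p = 0.966, 0.846 without replicate 4) and -0.32 (adjusted p = 0.669, 0.245 without replicate 4) and were not called.

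Signs of stress and dissociation were given beside these groups because heat shock and immediate-early genes respond to how cells are handled. Atf3, a stress-induced transcription factor, gave 8.07, 8.08, 7.72 and 7.97 in NdpKO GNPs, against 9.43, 8.93, 8.83 and 8.79 in WT GNPs, and differed by -1.03 (adjusted p = 0.0126, 0.017 without replicate 4), a call that held in all 8 leave-one-out fits. Cebpb, another stress-induced factor, differed by -0.95 (adjusted p = 0.0446, 0.0207 without replicate 4). Fos (0.03), Jun (0.23) and Egr1 (0.19) were called in neither fit, and the 19 immediate-early genes above level 5 had a median of -0.17 (-0.06 without replicate 4). Among 17 genes of the integrated stress response 15 had negative differences, with a median of -0.24 (-0.39 without replicate 4) and Cebpb as the 1 call, while Atf4 (-0.08) and Ddit3 (-0.26) were not called. The part of these genes in the glial and vascular differences was not tested.

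Other lists held no calls. Fibroblast genes had a median of -0.43 (-0.39 without replicate 4) over 4 genes, oligodendrocyte genes 0.00 (-0.25 without it) over 11, Purkinje and GABAergic genes -0.28 (-0.30) over 7, axon guidance genes 0.18 (0.19) over 11, hypoxia genes -0.02 (-0.03) over 6, p53 targets -0.19 (-0.33) over 6, antigen presentation genes -0.47 (-0.62) over 2 and cholesterol synthesis genes 0.06 (0.14) over 8, and no gene of these lists was called by its brightest probe, with or without replicate 4. Hemoglobin genes, a measure of blood in the preparation, had a mean level of 12.1 to 13.7 on NdpKO arrays, against 12.5 to 13.3 on WT arrays, with overlapping ranges. Ttr, which marks choroid plexus and was singled out after its values were seen, gave 11.64, 8.37, 6.31 and 8.37 in NdpKO GNPs, against 13.10, 14.15, 8.78 and 12.47 in WT GNPs, an uneven contribution within both groups (adjusted p = 0.428, 0.458 without replicate 4).

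**Figure D5:**
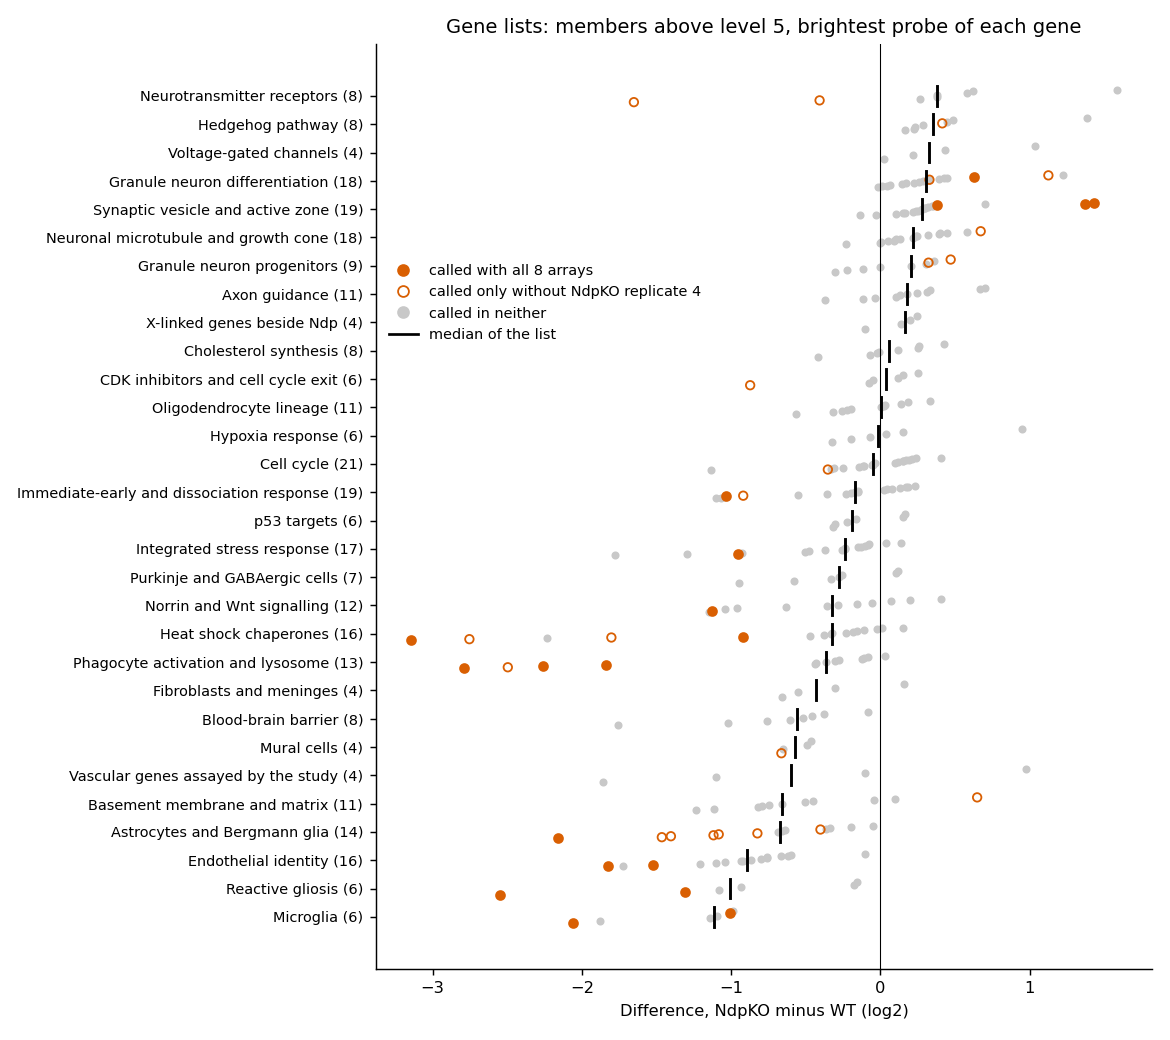
Difference in level (NdpKO minus WT, log2) of each listed gene above level 5, by list, with a bar at the list's median. Filled orange points are called with all arrays, open ones only without NdpKO replicate 4 and grey ones in neither fit. The astroglial, reactive gliosis, microglial and endothelial lists lie below 0 throughout, and granule differentiation and synaptic lists above 0 but for 1 and 2 genes. Genes above level 5 in 1 group only could differ only toward that group.

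The largest increases were not in the lists. Wdr82, an adaptor of a histone H3 lysine methyltransferase complex, gave 6.44, 6.29, 6.14 and 5.87 in NdpKO GNPs, against 4.32, 4.68, 4.67 and 4.38 in WT GNPs, at least 2.28-fold higher (adjusted p = 0.00515, 0.00599 without replicate 4), and the call held in all 8 leave-one-out fits. A brighter Wdr82 probe differed by -0.33 and was not called (adjusted p = 0.786, 0.971 without replicate 4), so the 2 probes disagreed. Scrt2, a neuronal zinc finger repressor, gave 6.51, 5.93, 6.14 and 6.18 in NdpKO GNPs, against 4.51, 4.86, 4.76 and 4.50 in WT GNPs, at least 2.28-fold higher (adjusted p = 0.0175, 0.0233 without replicate 4). Smco4, a small membrane protein, rose 2.79-fold (adjusted p = 0.0231, 0.0233 without replicate 4), with 7.36, 6.48, 6.95 and 6.62 in NdpKO GNPs and 5.72, 5.63, 4.87 and 5.27 in WT GNPs. Neither gene's groups overlapped, and each call held in 5 of the 8 leave-one-out fits.

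Smaller increases followed. Msl2, part of a histone acetyltransferase complex (1.15, adjusted p = 0.0112, 0.00642 without replicate 4), the zinc finger gene Hivep3 (0.77, adjusted p = 0.0126, 0.000714 without replicate 4) and the histone demethylase gene Phf2 (0.49, adjusted p = 0.00376, 0.00806 without replicate 4) were, with Wdr82, the 4 increases that held in all 8 leave-one-out fits. A dimmer Msl2 probe differed by 0.93 without passing (adjusted p = 0.156, 0.181 without replicate 4). Tmtc2 (1.17), the kinase gene Nuak1 (1.22), the axon regulator Mycbp2 (0.95), the guidance receptor Epha3 (0.85) and the transcriptional cofactor Zfpm2 (0.84) were also called with all arrays. For 19 of the 107 called genes the called probe was dimmer than another described probe of the gene that was not called, and this held for 49 of 295 without replicate 4. Among them Selenot, a thioredoxin-like selenoprotein, differed by 1.31 at the called probe and by 0.00 at the brightest, Plppr1, a membrane protein of growing axons, by 1.27 and 0.58, and Zbtb18, a neuronal repressor, by 0.83 and 0.40. Nuak1 differed by 1.22 and 0.27, Ilrun by 1.19 and 0.04, and Celf2 by 0.90 and 0.01.

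Among decreases outside the lists, Thg1l, which adds a guanosine to histidine tRNA, gave 5.47, 5.13, 5.60 and 5.61 in NdpKO GNPs, against 6.95, 6.98, 6.62 and 6.97 in WT GNPs. Every NdpKO array lay below every WT array, and Thg1l fell 2.69-fold (adjusted p = 0.0103, 0.0121 without replicate 4). Its call held in all 8 leave-one-out fits, as did those of Lmcd1, a transcriptional cofactor (-1.18, adjusted p = 0.0126, 0.0119 without replicate 4), and of 13 other probes that were lower, Hspa1a, Gpnmb, Serpina3n, Cd83, Tlr2, Fcrls, Cd44 and Atf3 among them. Irx5, a homeodomain factor (-1.36, adjusted p = 0.0438, 0.0451 without replicate 4), the selenium carrier gene Selenop (-1.88, adjusted p = 0.0425, 0.0207 without replicate 4) and Ube2cbp, a ubiquitin ligase gene (-1.18, adjusted p = 0.0325, 0.0406 without replicate 4), were called with all arrays. A brighter Selenop probe differed by -1.03 without passing (adjusted p = 0.202, 0.0811 without replicate 4).

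The 210 probes called only without replicate 4 included some for which this array decided the result. Ubox5, a ubiquitin ligase gene, gave 6.78, 5.79, 6.31 and 8.49 in NdpKO GNPs, against 8.39, 8.08, 8.66 and 8.60 in WT GNPs (adjusted p = 0.041 without replicate 4, 0.255 with it). Another Ubox5 probe of similar level differed by 0.03 and was called in neither fit (adjusted p = 0.973, 0.989 without replicate 4), so the probes disagreed. Klf5, a Krüppel-like factor, gave 4.62, 4.90, 4.54 and 7.03 in NdpKO GNPs, against 6.72, 6.20, 7.33 and 7.04 in WT GNPs (adjusted p = 0.0491 without replicate 4, 0.307 with it). At the called probes of both genes, NdpKO replicates 1, 2 and 3 lay below all WT arrays and replicate 4 lay within the WT range.

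The Ptch+/- background allowed the Ndp difference to be taken again on 8 other arrays. Ptch+/- arrays were labelled C57Bl/6 and no compound mutant array was, so strain and Ndp genotype cannot be told apart in this pair either. Of the 109 called probes, 30 had the same sign in NdpKO;Ptch+/- minus Ptch+/- GNPs (27.5%), beside 32.5% of all 9717 described probes, and 79 the opposite sign. Over all probes 0.0155% were called there, or 0.0110% without NdpKO;Ptch+/- replicate 2, whose title and other labels disagreed about its Ptch1 genotype. The 2 probes of Prm1, a protamine gene, were at 4.10 to 4.13 on all NdpKO and WT arrays, at 9.57 to 10.66 on the NdpKO;Ptch+/- arrays and at 10.11 to 10.51 on the Ptch+/- arrays. They were at 9.92 and 9.57 on the array with disagreeing labels, which in this measure lay with the arrays of its title. Ptch+/- replicate 3 differed from the other 15 GNP arrays in having Xist at 10.02 and Eif2s3y at 4.11, the pattern of a female, and its part in the Ptch-background differences was not tested. Thg1l and Ube2cbp were called in both backgrounds, with Ptch-background differences of -1.64 (adjusted p = 0.00818) and -1.47 (adjusted p = 0.0364). Thg1l averaged 5.55 in NdpKO;Ptch+/- GNPs and 7.18 in Ptch+/- GNPs, and without the disagreeing array it was still called (adjusted p = 0.0424) and Ube2cbp was not (adjusted p = 0.119).

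The other 107 called probes were not called there. Hspa1a averaged 6.97 in compound mutant GNPs and 7.68 in Ptch+/- GNPs. Apcdd1 averaged 9.72 in compound mutant GNPs and 9.82 in Ptch+/- GNPs. Kcnd2 averaged 9.63 in compound mutant GNPs and 9.65 in Ptch+/- GNPs, both within its range on NdpKO arrays. The mean of Ptch+/- GNPs, labelled C57Bl/6 like WT, lay nearer to NdpKO than to WT for 98 of the 109 called probes (89.9%), beside 71.3% of all described probes, and that of NdpKO;Ptch+/- GNPs for 89 (81.7%), beside 51.0%. These counts use the WT arrays that also chose the 109 probes, and no test was made on them.

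The genes beside the disrupted Ndp locus were also examined. None of the coding genes with a probe above level 5 within 20 genes on either side of Ndp was called, Med14, a Mediator subunit gene, coming nearest (0.91, adjusted p = 0.0881). Of 226 described genes on the X chromosome 1 was called (0.442%), and 7 without replicate 4 (3.10%), beside 107 (1.51%) and 295 (4.16%) of all 7083 described genes. Eif2s3y, on the Y chromosome, was at 8.28, 8.31, 8.47 and 8.50 in NdpKO GNPs and 8.31, 8.79, 8.47 and 8.17 in WT GNPs, above level 5 on all 8 arrays.

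The largest difference on the arrays belonged to a probe with no gene symbol, and so outside the described set. ILMN_2690603 gave 4.11, 4.13, 4.11 and 4.14 in NdpKO GNPs, against 8.87, 8.42, 8.49 and 9.01 in WT GNPs, at least 13.0-fold lower (difference -4.58 ± 0.28 SE, adjusted p = 3.35e-05, 0.000375 without replicate 4). It was at background on all NdpKO arrays and bright on all WT arrays. It was also at 4.12 on each compound mutant array, against 5.80, 6.91, 6.35 and 7.58 in Ptch+/- GNPs, and was called there (difference -2.54, adjusted p = 0.00818). In all, 17 of the 139 called probes had no symbol.

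Restricting the test to probes at or above level 5 on at least 4 GNP arrays gave the highest counts. Fewer probes then shared the correction, and the spread was also estimated anew from these probes alone. The part of each in the counts was not tested. It called 4.99% of 11339 probes with all arrays and 13.1% without replicate 4. Of 7082 described genes by their brightest probe it called 195 higher and 185 lower with all arrays. Lower in NdpKO GNPs were 4 of 6 microglial genes, 5 of 13 of phagocyte activation, 6 of 14 astroglial, 4 of 16 heat shock and 3 of 16 endothelial genes, and higher were 4 of 18 granule differentiation, 4 of 19 synaptic and 2 of 8 Hedgehog pathway genes. These shares can include genes that passed the filter through 1 group. Tlr2, for example, was at or above level 5 on WT arrays only. Some lists held calls in both directions, with 2 of 8 neurotransmitter receptor genes higher and 1 lower, and 1 of 11 basement membrane and matrix genes higher and 2 lower.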

How the data were processed

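RNA of purified postnatal day 6 GNPs was hybridised by the authors to MouseWG-6 v2.0 bead arrays, 1 colour and 1 array per mouse preparation. The deposited values are log2 intensities that the authors had background-corrected, quantile normalised and log-transformed with the neqc function of limma, per the study's methods, and every array has the same lowest (4.09), median (4.13) and highest (15.7) value, with 23.0 to 23.9% of probes at or above level 5. This forces equal distributions, so a change shared by most genes would not be seen. No bead counts or detection p-values were used, and precision is limited by 4 arrays per group. Per the labels each group's replicates are separate samples, taken as separate animals, and p-values measure the spread between them.

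From these values limma 3.58.1 in R 4.3.3 estimated a mean for each of 4 genotypes over 16 GNP arrays (lmFit, contrast NdpKO minus WT, eBayes, two-sided), with Benjamini-Hochberg adjustment over 45281 probes and calls at an adjusted p under 0.05. The 16 arrays share 1 estimate of spread. The fit was repeated without NdpKO replicate 4. Tables were made with pandas 2.3.3 and numpy 2.4.6, and the test was tested on simulated data. No probe set was removed for poor annotation. Probes were named from the platform's annotation (34885 with 1 symbol, 18 with several, 10378 with none), and 9704 of the 9717 described probes matched RefSeq by gene identifier. A gene in a list was given by its brightest probe. A fold against a group whose mean lay below level 5 was taken against level 5 and written as at least. No fold is reported for a gene with both means below level 5.

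The described probes, the 33 gene lists and the named genes were chosen with earlier results of these data known. Named were Ndp, Ptch1 and other genes of the pathway whatever their values, the called genes with the 15 highest and lowest differences above level 5 in both groups and the 10 highest and lowest among all, 15 each way of those called only without replicate 4, and the called or brightest members of each list. The series also holds arrays not used here, 2 of tumors. One NdpKO;Ptch+/- array carries labels that disagree about its Ptch1 genotype and was kept by its title, beside whose arrays its Prm1 level lay, with an alternative that counts it as NdpKO. Alternatives tried were the 8 NdpKO and WT arrays alone, leaving out each of these 8 in turn, and a replicate block. Others were a filter on dim probes, an equal median of bright probes, a trended and robust eBayes and array weights. No Ptch+/- or NdpKO;Ptch+/- array was left out singly from the NdpKO minus WT fit.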

Additional observations from a re-analysis of the deposited data

Results flagged for a closer look

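Single arrays far from the other 3 of their group were found in 27 of 364 groups tested by Dixon's ratio for 4 samples, where chance alone marks about 1 in 20. NdpKO replicate 4 was the array in 12 of the 27. Swap70, Klf5, Sdc4 and the Gfap probe were named because they were called only without this array, and others were chosen with list calls made without it, so its count cannot be set against chance. It was high among NdpKO arrays for Nostrin (5.22), a dimmer Gfap probe (5.99), Swap70 (6.01), Klf5 (7.03), Sdc4 (5.91), Mcam (7.29), Cdk1 (10.69), Gadd45b (7.67), Trib3 (6.36), H2-D1 (8.47) and B2m (10.60), and low for Msl2 (6.54). NdpKO replicate 1 stood apart for Nuak1 (6.73) and C1qc (4.39). Of WT arrays, replicate 1 did so for Mfsd2a (9.98), Tspan12 (7.27) and Timp1 (6.68), replicate 2 for Angpt2 (7.39), replicate 3 for Zfpm2 (9.54), Thg1l (6.62) and Vtn (8.73), and replicate 4 for Taf1a (6.95), Gria1 (7.83), Plvap (5.71), Ctnnb1 (11.31), C1qb (8.50) and Cdkn1c (11.93).

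The Ndp difference itself differed between the WT and the Ptch+/- background for 173 of the described probes (224 of all 45281) by limma's interaction contrast at an adjusted p under 0.05. The genes below were named because of the difference in the WT background, which is 1 of the 2 differences compared, so the test is not independent of that choice. Values are the NdpKO minus WT difference less the NdpKO;Ptch+/- minus Ptch+/- difference, log2. It was positive for Scrt2 (3.03), Wdr82 (2.54), Itsn1 (2.31), Chrnb2 (2.23), Smco4 (2.02), D430041D05Rik (1.99), Shank3 (1.81), Tmtc2 (1.62), Ilrun (1.61), Grin2b (1.58), Nuak1 (1.57), Zbtb18 (1.54), Selenot (1.52), Msl2 (1.41), Zfpm2 (1.38), Celf2 (1.27), Epha3 (1.08), Nkain1 (0.98), Hivep3 (0.96), Papola (0.96), Zic2 (0.96), Zic4 (0.76), Ccnd2 (0.68) and Cntn2 (0.46). It was negative for Cd83 (-2.43), Serpina3n (-2.31), the unnamed probe ILMN_2690603 (-2.04), Tlr2 (-1.91), Cables1 (-1.75), Cd44 (-1.52), Pdlim4 (-1.47), Bag3 (-1.38), Rnase4 (-1.36), Lmcd1 (-1.33), Cebpb (-1.23) and Sox9 (-0.85).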

How the results depend on the processing

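Most probes lay at background on every array, and the part of this in the counts of calls was not tested. For all probes (139 calls, 69 higher and 70 lower in NdpKO GNPs, 109 described probes) the count was 4 (2 higher, 2 lower, 3 described) on the 8 NdpKO and WT arrays alone, 64 (27, 37, 50) when the array with conflicting labels was taken for NdpKO, 566 (303, 263, 495) over bright probes, and 317 (128, 189, 228) with trended and robust eBayes. An equal median of bright probes gave 129 calls and array weights 121. Leaving out 1 NdpKO or WT array gave 25 to 401 calls, 7 to 181 higher, 18 to 220 lower and 20 to 310 described, lowest without NdpKO replicate 1 and highest without NdpKO replicate 4. Without WT replicate 4 it was 188. With a replicate block the count was 52 (23, 29, 43). Same-numbered NdpKO and WT arrays deviated together by correlations of -0.15 to 0.08, and whether they share more than a number was not tested. Without NdpKO replicate 4 (401 calls), alternatives chosen after the data were seen gave 62 (33 higher, 29 lower) with the replicate block, 112 (41, 71) on the 7 arrays alone, 1486 (720, 766) over bright probes, 976 (439, 537) with trended and robust eBayes, 35 (9, 26) with the conflicting array as NdpKO, 399 with an equal median and 411 with array weights. The count of probes whose groups do not overlap (2479) was 3384 to 5522 without 1 array, a smaller group overlapping less by construction, and 1444 with the conflicting array as NdpKO. Of 48 named genes called with all arrays none changed sign, and 47 were still called without NdpKO replicate 4, 12 without NdpKO replicate 1, 44 with array weights and 1 on the 8 arrays alone, and 19 with the block. Of genes that were not called, Emcn (ILMN_1259365) turned sign, from -0.43 to 0.18 over the leave-one-out fits and 0.18 with the conflicting array as NdpKO, which also took Ptch1 (ILMN_2460224) to -0.035. The cause of these changes was not tested.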
